A study of Homo sapiens with 4 samples.

Results

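Integrins, laminins and collagens were examined in T47D cells, a line of luminal human breast cancer cells with high levels of the progesterone receptor (PR). Members were taken by gene symbol from the RNA-seq transcript lists (symbols starting with ITGA or ITGB, LAMA, LAMB or LAMC, or COL with a type and chain number), and 91 of the 23287 symbols met the rule. Of these, 81 were chains of the families themselves, namely 26 integrins, 12 laminins and 43 collagens. The other 10 symbols match the rule without being chains of these families, such as COL4A3BP, the ceramide transfer protein now called CERT1.

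The cells were kept in charcoal-stripped serum, which is low in steroids, and received either 10 nM R5020, a synthetic progestin, or ethanol (EtOH) as the vehicle for 3 h before RNA-seq. PR binding sites came from chromatin immunoprecipitation of the receptor (ChIP-seq) after 1 h of 10 nM R5020, without a vehicle arm in the site list used here. Per the paper's methods, cells were in charcoal-stripped serum for longer before ChIP than before RNA isolation. There was 1 library per condition and 1 ChIP library, so the differences could not be set against a spread between replicates, and p-values are not given. A single cell line in culture lacks the fibroblasts and vessels that surround epithelium in the breast.

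Integrins are receptors made of an alpha and a beta chain that bind matrix proteins outside the cell and the cytoskeleton inside it. Laminins are secreted trimers of an alpha, a beta and a gamma chain and form the sheet of the basement membrane under epithelia, where type IV collagen forms a second network. Fibrillar collagens such as type I are made mainly by fibroblasts, and a collagen is secreted only as an assembled helix of its chains.

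The PR sites with the highest scores near expressed members lay at ITGB4 and ITGB8, and their central 200 bases (hg19, plus strand) are shown as the PR-bound sequence of highest score within 50 kb of members with an FPKM of 1 or more. The site in an intron of LAMA3 is added for its laminin gene and was chosen after its values were seen. A site score here is −10 times the log10 of the peak caller's p-value, with 50 as the lowest score deposited. Capitals mark a match to the progesterone response element, searched as GNACA followed after 3 bases of any kind by its reverse complement TGTNC, a pattern that reads alike on either strand.
GALK1 intron beyond the 3′ end of ITGB4, chr17:73760790-73760989, score 201: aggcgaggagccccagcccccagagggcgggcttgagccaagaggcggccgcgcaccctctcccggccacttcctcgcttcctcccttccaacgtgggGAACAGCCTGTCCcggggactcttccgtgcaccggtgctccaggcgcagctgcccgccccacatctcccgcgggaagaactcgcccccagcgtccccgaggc
ITGB4 intron, chr17:73739664-73739863, score 167: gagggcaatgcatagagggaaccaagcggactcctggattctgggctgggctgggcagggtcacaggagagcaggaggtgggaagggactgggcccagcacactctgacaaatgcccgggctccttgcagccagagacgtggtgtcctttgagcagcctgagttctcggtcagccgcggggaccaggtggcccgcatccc
ITGB8 start, chr7:20370167-20370366, score 149: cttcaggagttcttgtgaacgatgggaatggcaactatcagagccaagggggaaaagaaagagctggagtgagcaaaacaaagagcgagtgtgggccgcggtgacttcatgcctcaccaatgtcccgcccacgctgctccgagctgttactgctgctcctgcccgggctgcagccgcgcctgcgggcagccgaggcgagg
LAMA3 intron, chr18:21305944-21306143, score 107: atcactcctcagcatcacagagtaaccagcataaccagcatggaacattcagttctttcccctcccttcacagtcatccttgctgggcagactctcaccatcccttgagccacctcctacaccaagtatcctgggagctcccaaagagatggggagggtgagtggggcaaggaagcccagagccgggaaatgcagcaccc
The first of these windows held the element and the other windows did not. The window labelled ITGB8 start ends before that start at chr7:20370725, which only the wider site covers. Across the genome the element was present in 1.44% of 11178 windows of this length centred on PR sites. At site scores of 100 or more the share was 3.62%, and at 200 or more it was 7.53%. Of the 63 windows near expressed members 1 held the element. The core ACANNNTGT, which the longer element contains, was found in 5.81% of all windows and in 3 of these 63.

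Expression is given as FPKM, the number of fragments scaled to transcript length and to sequencing depth, summed over the transcripts of a symbol, which permits levels to be compared between genes. A symbol was retained as expressed when its FPKM was 1 or more in at least 1 condition. By this filter 23 of the 91 members (25.3%) were retained, against 47.3% of all symbols. The retained members comprised 9 of 26 integrins, 6 of 12 laminins, 5 of 43 collagens and 3 of the 10 other symbols. Of the 68 members under the filter, 15 were listed at 0 in both libraries and 49 had less than 0.1 FPKM in both. Luminal epithelial markers identified the cells, with KRT19 at 608 FPKM in EtOH and 477 in R5020 and PGR, the gene of the receptor itself, at 23.7 and 15.3. The keratins KRT8 and KRT18 were listed at 0 in EtOH, where all 6 of their transcripts carried a failed estimate, and no member transcript did in either library. Of other lineages' markers, 0 of 5 leukocyte, 0 of 4 endothelial, 1 of 8 fibroblast and 2 of 6 basal epithelial genes were retained.

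**Figure D1:**
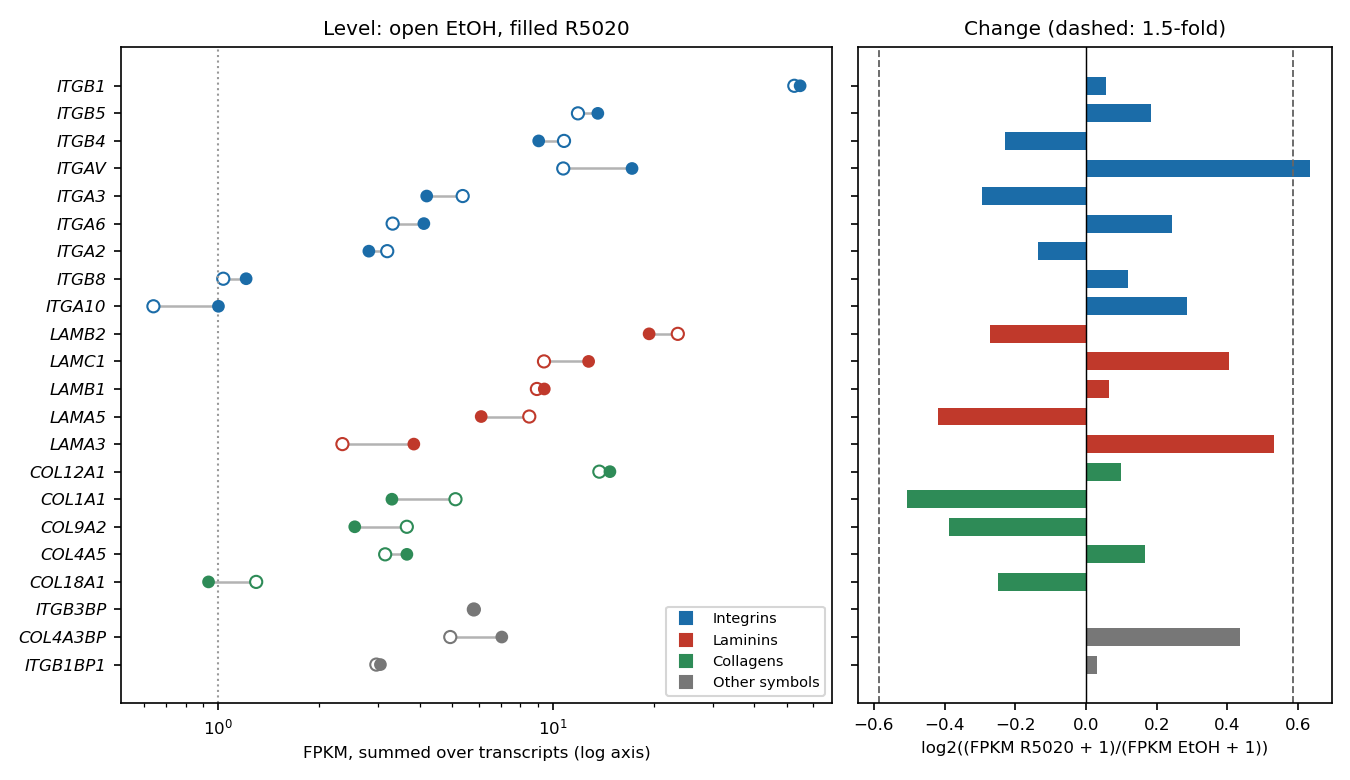
FPKM of 22 retained members on a log axis (left; open circles EtOH, filled circles R5020, dotted line at 1 FPKM) and the log2 ratio of FPKM + 1 between R5020 and EtOH (right; dashed lines at 1.5-fold). 1 library stands behind each circle; only the bar of ITGAV passes a dashed line, and ITGB1 has the highest level in both libraries.

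A change was counted when log2((FPKM in R5020 + 1)/(FPKM in EtOH + 1)) reached 1.5-fold, which is 0.58 on this scale. After 3 h of progestin 1 of the 23 retained members was higher by this measure and 0 were lower. Among all 11018 retained genes, 7.67% were higher and 4.14% were lower. The member that rose was ITGAV, the alpha-v integrin chain. The 23 log2 ratios ran from −0.51 for COL1A1 to 0.64 for ITGAV, with a median of 0.06 beside 0.01 over all retained genes. The other 22 stayed under 1.5-fold on this scale. The addition of 1 FPKM shrinks the ratios of low genes, and by FPKM alone 3 members were higher (ITGAV, LAMA3 and ITGA10) and COL1A1 was lower, beside 10.2% and 7.67% of all retained genes. In RNA from whole cultures, fewer cells expressing a gene and less RNA in each cell cannot be told apart.

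ITGAV pairs with several beta chains to form receptors for vitronectin, fibronectin and latent TGF-beta, which they recognise by an RGD motif. Its FPKM was 10.7 in EtOH and 17.2 in R5020, a log2 ratio of 0.64. The change in FPKM was 1.60-fold (95% counting interval 1.54 to 1.67) on about 7206 and 11185 reads, and the interval covers counting error only. Under the GC adjustment described further on, its log2 ratio was 0.53 and no longer reached 1.5-fold. The other RGD-binding alpha chains were not retained, ITGA5, the fibronectin receptor chain, being at 0.655 in EtOH and 0.358 in R5020 and ITGA2B, the platelet chain, at 0.402 and 0.341.

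The transcripts of ITGAV did not move together. Both transcripts that begin at the upstream start (chr2:187454790) summed to 6.59 FPKM in EtOH and 14.4 in R5020, a log2 ratio of 1.02. Most of this came from NM_002210, the longest transcript, which was at 5.04 in EtOH and 12.0 in R5020. NM_001145000, which shares that start, was at 1.54 and 2.36. The transcript that begins 10.1 kb further downstream, NM_001144999, was at 4.15 in EtOH and 2.88 in R5020, a log2 ratio of −0.41. The share of the gene's FPKM assigned to the downstream start was therefore 38.7% in EtOH and 16.7% in R5020. These transcripts overlap over most of their length, so their separate values rest on how Cufflinks divided the shared reads.

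**Figure D2:**
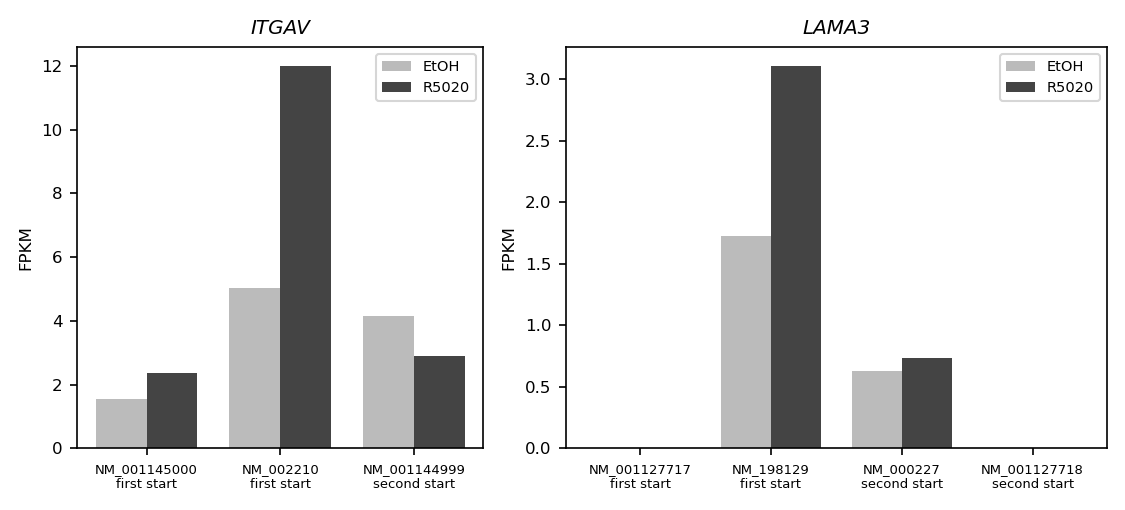
FPKM of each annotated transcript of ITGAV (left) and LAMA3 (right) in EtOH (grey) and R5020 (black), 1 library each, ordered by transcription start. The longest ITGAV transcript stands at 5.04 and 12.0 and that of the downstream start at 4.15 and 2.88, while 2 LAMA3 transcripts without a bar were listed at 0 in both libraries.

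Among the collagen-binding alpha chains, ITGA2, the chain of the main epithelial collagen receptor, was at 3.20 FPKM in EtOH and 2.82 in R5020. ITGA10, better known from cartilage, was at 0.641 and 1.003, just past the filter. Its paralogue ITGA11, a fibroblast chain, was at 0.0128 in EtOH and 0.0179 in R5020. Neither retained chain reached 1.5-fold on the log2 scale used, the ratios being −0.14 for ITGA2 and 0.29 for ITGA10. Without the pseudocount, ITGA10 was 1.56-fold higher (counting interval 1.28 to 1.92).

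The laminin receptors divided in direction, without reaching 1.5-fold. ITGA3, which with ITGB1 binds laminin-332 and laminin-511, was at 5.38 FPKM in EtOH and 4.20 in R5020 (log2 ratio −0.29). ITGA6, whose chain pairs with ITGB4 in hemidesmosomes, was at 3.32 and 4.12 (0.24). ITGB4 was at 10.8 in EtOH and 9.07 in R5020 (−0.23). ITGA6 has transcripts that differ at the cytoplasmic end, and NM_001079818 held 39.9% of its FPKM in EtOH and 46.7% in R5020. For ITGA3 a transcript listed at 0 in EtOH, NM_005501, was at 0.510 in R5020, while NM_002204 was at 5.38 and 3.69. The leukocyte integrin alpha chains, with ITGA4 and ITGA9 in the same group, all stayed under the filter, the highest value among these 7 being 0.512 FPKM for ITGAE in EtOH.

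ITGB1, the beta chain shared by most of these receptors, had the highest level of all members at 52.6 FPKM in EtOH and 54.8 in R5020, ranks 404 and 423 among all symbols. ITGB5, a partner of ITGAV, was at 11.9 and 13.6. ITGB8, another ITGAV partner and a receptor for latent TGF-beta, was at 1.04 and 1.21. None of these beta chains reached 1.5-fold, with log2 ratios of 0.06, 0.18 and 0.12. ITGB3 (0.0208 and 0.0258) and the leukocyte chain ITGB2, listed at 0 in EtOH and at 0.0642 in R5020, were far below the filter. Summed over chains, integrin beta FPKM exceeded integrin alpha FPKM in both libraries, at 76.7 against 25.5 in EtOH and 79.0 against 31.2 in R5020.

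Every laminin subunit class had a retained member. LAMB2 was the most abundant laminin chain at 23.6 FPKM in EtOH and 19.4 in R5020 (log2 ratio −0.27). LAMB1, the alternative beta chain, was at 8.96 and 9.43 (0.07). LAMC1, the gamma chain of most laminins, was at 9.41 in EtOH and 12.8 in R5020 (0.41), or 1.36-fold in FPKM. The alpha chains, which decide which receptors a laminin binds, differed in opposite directions. LAMA5, the alpha chain of laminin-511 and laminin-521, was at 8.50 in EtOH and 6.11 in R5020 (−0.42). LAMA3, the alpha chain of laminin-332, was at 2.35 and 3.84 (0.53). LAMB3, the beta chain of laminin-332, was at 0.419 and 0.330.

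LAMA3 lay just under the threshold, and its place depended on the pseudocount. Its FPKM ratio without a pseudocount was 1.63 (counting interval 1.51 to 1.77), and with a pseudocount of 0.1 it counted as higher. In the deposited values the difference lay mostly in the long transcript NM_198129, which was at 1.72 FPKM in EtOH and 3.11 in R5020 (log2 ratio 0.59). The short transcript NM_000227, which starts 183 kb further downstream, was at 0.629 and 0.737. As for ITGAV, these separate values rest on how Cufflinks divided reads shared by overlapping transcripts. At the transcript level 2 of the 28 retained member transcripts were higher, the long transcripts of ITGAV and LAMA3, and 0 were lower. Over all 13625 retained transcripts 11.3% were higher and 8.34% lower. The PR site in the LAMA3 intron printed above lay 36.5 kb after the start of the long transcripts and 147 kb before that of the short ones.

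Few collagen genes were expressed, and their usual partner chains were mostly absent. COL12A1, a chain found on the surface of collagen fibrils, was the highest at 13.8 FPKM in EtOH and 14.8 in R5020 and forms a trimer of itself. COL1A1, the major chain of type I collagen, was at 5.12 and 3.31 (log2 ratio −0.51). Its partner COL1A2 was listed at 0 in both libraries. The FPKM ratio of COL1A1 was 0.646 (counting interval 0.594 to 0.702), so that with a pseudocount of 0.1 it counted as lower. In both libraries its FPKM lay above the upper end of its own deposited interval, which was 3.38 in EtOH and 2.13 in R5020. COL9A2, a chain of the cartilage collagen IX, was at 3.66 in EtOH and 2.56 in R5020 (−0.39), while COL9A3 of the same trimer was listed at 0 in both. COL18A1, the source of endostatin and a basement membrane collagen, was at 1.30 and 0.937 (−0.25).

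COL4A5 was the retained type IV chain, at 3.16 FPKM in EtOH and 3.66 in R5020 (log2 ratio 0.17). COL4A6, which starts 369 bases away in the opposite direction and whose chain assembles with that of COL4A5, was at 0.569 and 0.521. The other 4 type IV chains had at most 0.0291. Of the remaining collagens under the filter, COL7A1, the anchoring fibril collagen that binds laminin-332 in skin, had 0.751 in EtOH and 0.511 in R5020, COL5A2 0.546 and 0.423, and COL21A1 0.505 and 0.381. Lumican (LUM), the single fibroblast marker over the filter, was at 2.54 and 1.66, with the list of 8 summing to 3.11 and 2.44 and POSTN listed at 0 in both.

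Among the other symbols, COL4A3BP was at 4.94 FPKM in EtOH and 7.04 in R5020 (log2 ratio 0.44). It overlaps POLK, which runs on the opposite strand. ITGB3BP, a centromere protein also called CENPR, was at 5.81 in both libraries, and ITGB1BP1, which binds the tail of ITGB1 and regulates its activation, was at 2.97 and 3.06. These genes encode no matrix or receptor chain, and removing them left 20 retained chains, of which 1 was higher and 0 were lower.

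The difference between the libraries varied with the base composition of the transcripts. Over 10800 retained genes with a matched reference transcript, the median log2 ratio was 0.10 in the lowest and −0.14 in the highest of 10 classes of GC content with equal numbers of genes. Across genes Pearson's r with GC content was −0.16 (Spearman's rho −0.28). Across the 23 retained members r was −0.67 and rho −0.60, as a description of points that share the same libraries. All 7 members in the 2 highest GC classes, LAMB2, ITGA3, ITGB4, COL1A1, COL9A2, LAMA5 and COL18A1, had log2 ratios under 0. ITGAV, with 38.3% GC, belonged to the lowest class. After the median of the gene's GC class was subtracted, 0 members were higher and 0 lower. The part of GC content in these ratios was not tested, and it cannot be told apart from the treatment with 1 library each.

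**Figure D3:**
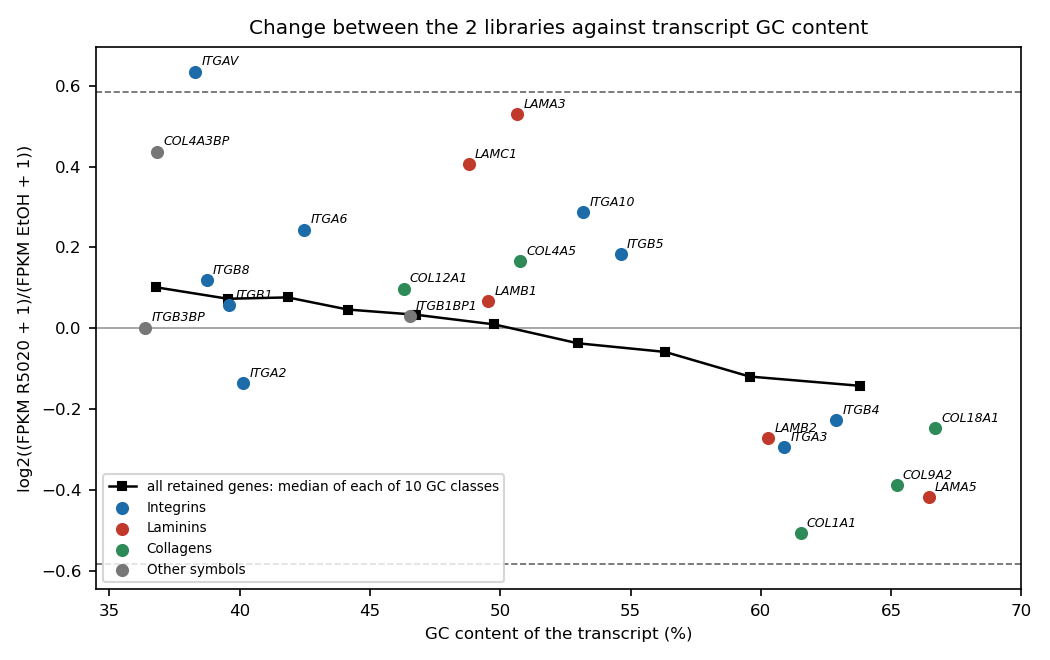
Log2 ratio of FPKM + 1 between R5020 and EtOH (vertical axis) against the GC content of the transcript in percent (horizontal axis) for 22 retained members, with the median of each GC class of all retained genes as black squares and 1.5-fold as dashed lines. The squares run from 0.10 at the left to −0.14 at the right, and the 7 members above 60% GC all lie under 0.

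PR sites were assigned to a gene when they lay in it or within 50 kb. Such a site was present for 52 of the 91 members (57.1%, Wilson 95% interval 46.9 to 66.8) and for 45.6% of all symbols. Of the 23 retained members 16 had one (69.6%, interval 49.1 to 84.4), beside 52.7% of all retained genes, a value inside that interval. By family, a site was near 19 of 26 integrins, 8 of 12 laminins and 20 of 43 collagens. With the sites restricted to those overlapping the gene, 9 of the 23 retained members had one, against 22.5% of retained genes. Counted within 50 kb of the nearest start site, 12 of the 23 had one (52.2%), against 44.1% of retained genes. The members' loci had a median span of 83.9 kb and those of all symbols 18.6 kb. For loci under 20 kb, 11 of 13 members (84.6%, Wilson 95% interval 57.8 to 95.7) and 46.2% of all symbols had a site in or within 50 kb. These members include COL18A1-AS1, whose sites were also assigned to COL18A1. For spans from 20 to under 100 kb these shares were 64.1% (25 of 39 members, interval 48.4 to 77.3) and 44.2%. For 100 kb or more they were 41.0% (16 of 39, interval 27.1 to 56.6) and 46.9%. The part of span in these shares was not tested.

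ITGAV, the member that rose, had no PR site within 50 kb, its nearest lying 246 kb away with a score of 70.8. No site lay within 50 kb of ITGB1, ITGB5, LAMB1, COL12A1, COL4A5 or ITGB3BP either. These 7 genes had log2 ratios above 0, although that of ITGB3BP was 0.00 and turned negative on rescaling, whereas of the 16 retained members with a site 9 had ratios under 0 and 7 above. Over all retained genes the ratio was under 0 for 51.8% of those with a site and 46.2% of those without, whose median GC contents were 52.3% and 44.3%. Among all genes that passed 1.5-fold, a site was near 61.4% of the higher and 61.0% of the lower ones, and 51.5% of the less changed genes had one.

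At ITGB4, 6 sites were assigned, 4 of them overlapping the gene. The highest of these, with a score of 201, lay in an intron of GALK1, 6.57 kb beyond ITGB4, and is the window with the full response element. The next, with a score of 167, lay in an ITGB4 intron 22.2 kb after the gene start, and another with a score of 124 in an exon. ITGB4 itself differed by less than 1.5-fold between the libraries, as given above. At ITGB8 the single site covered the transcription start, with its midpoint at −0.459 kb from it, outside protein-coding genes and within an intron of the antisense gene ITGB8-AS1. At ITGA3, 4 sites were assigned, the highest of them in an exon with a score of 108.

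Sites were most numerous at LAMA5 and COL18A1 among expressed members. LAMA5 had 19, of which 9 overlapped the gene and the highest scored 124, 8.25 kb beyond the gene. COL18A1 had 14, of which 7 overlapped the gene and 4 of the others lay in SLC19A1, its neighbour. Among members under the filter, COL20A1 had 22 sites, COL5A1 and COL9A3 13 each, and ITGB2 10. More than 9 sites were thus found at 6 members, against 1.41% of all symbols. These 6 do not stand for 6 separate regions. LAMA5, COL9A3 and COL20A1 lie near each other on chromosome 20, from positions 60884121, 61448414 and 61924538. ITGB2 and COL18A1 lie near each other on chromosome 21, from 46305868 and 46825097. The windows at LAMA5 had a median GC content of 66.0%, those of all sites 57.5%, and the part of base composition in these counts was not tested. Of the 4 sites at COL9A2, the highest (score 84.3) lay 0.614 kb after the gene start.

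Single sites were also assigned to LAMA3, LAMC1, LAMB2, ITGA2, ITGA6, COL4A3BP and ITGB1BP1. That of LAMC1 lay 14.4 kb beyond the gene, with a score of 67.8. ITGA6 owed its site, with a score of 123, to an exon of PDK1, 49.6 kb beyond the gene. ITGA10 had 4 sites, the highest of 122 in its own exon, and COL1A1 had 3, of which 2 lay in introns of the gene. The sites near members had a median score of 74.9, near that of all 11181 sites (74.5).

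**Figure D4:**
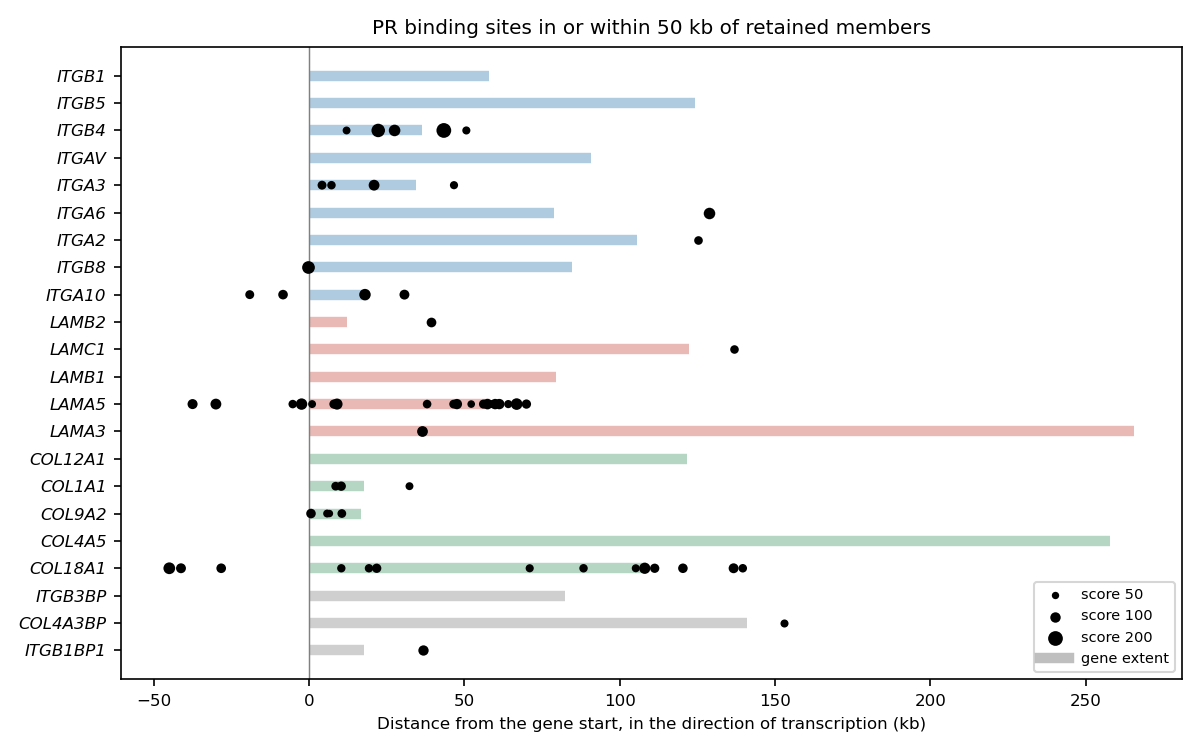
PR binding sites (black points, area proportional to score) in or within 50 kb of 22 retained members, by distance in kb from the gene start in the direction of transcription; coloured bars show the gene extents. LAMA5 and COL18A1 carry 19 and 14 sites, the site of ITGB8 lies at the start, and 7 genes including ITGAV have none.

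Genes that act with integrins, laminins and collagens included larger differences. In lists of 81 such genes 48 were retained, 8 were higher and 1 was lower, beside the 7.67% and 4.14% of all retained genes. The lists were chosen with earlier results of these data known. Their counts, here and below, therefore cannot measure an excess over that background. THBS1, the matrix glycoprotein thrombospondin-1, was at 11.3 FPKM in EtOH and 50.7 in R5020 (log2 ratio 2.07). CD44, a receptor for hyaluronan, was at 3.58 and 12.0 (1.505). P4HA2, a subunit of the enzyme that hydroxylates collagen prolines, was at 4.22 and 12.0 (1.32). The other collagen biosynthesis genes did not reach 1.5-fold, the abundant P4HB and PPIB being at 170 and 94.6 FPKM in EtOH and 169 and 92.2 in R5020.

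In the list of adaptors, focal adhesion genes and membrane partners of integrins, 5 of 22 retained genes were higher and 0 were lower. VCL, vinculin, which links the integrin adhesion to actin, was at 16.0 FPKM in EtOH and 39.3 in R5020 (log2 ratio 1.24). The related scaffolds BCAR1 and NEDD9 were at 8.41 and 0.887 in EtOH and at 15.2 and 2.37 in R5020. TNS3, tensin-3, was at 9.51 and 17.3, and CD9, a tetraspanin that associates with integrins, at 29.9 and 45.7. SRC, a tyrosine kinase of focal adhesions, was at 2.29 and 1.24 (−0.56), under the threshold on this scale and past it without the pseudocount. The gene that fell was DST, dystonin, whose epithelial form joins ITGB4 to keratin filaments in the hemidesmosome, at 14.8 in EtOH and 8.97 in R5020 (−0.67). The FPKM of DST was summed over 2 transcripts, the higher of them 16642 bases long, and its forms were not compared. Its list of hemidesmosome and matrix receptor genes also held the abundant DDR1 at 54.1 and 51.0 and DAG1 at 49.4 and 42.8. RPSA, listed there though it encodes a ribosomal protein, was at 79.6 and 97.8. None of these 3 reached 1.5-fold.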

How the data were processed

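RNA-seq (1 EtOH and 1 R5020 library) and PR ChIP-seq (1 library) of T47D cells were analysed; an input DNA library served the authors as peak control and its values were not analysed here. Per the methods and the submitters' processing notes, the authors mapped ChIP reads to hg19 with Bowtie 1.1.2 and called peaks with MACS on single samples; 50-base paired RNA reads were aligned with TopHat and quantified with Cufflinks. The deposited FPKM values, per RefSeq transcript, were summed by symbol. The deposited coverage signal times length over 50 gave approximate reads, about 35151493 for EtOH and 36203604 for R5020. For each retained member and library they ran from 310 to 19588. The paper reports more unique paired-end reads for both libraries, with EtOH the deeper, so these totals do not measure depth. Counting intervals (95%) counted 2 mates as 1 fragment. The deposited site score is MACS's −10·log10 of p. Column FPKM intervals were checked: for 9 of 28 retained member transcripts in each library (of COL1A1, COL4A3BP, COL9A2, ITGA2, ITGB5, LAMB1, LAMB2 and LAMC1) the FPKM lay outside its own interval, so they were not used as errors. Retained symbols with a failed estimate (8) stayed in the background; without them 7.65% were higher and 4.10% lower.

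The FPKM filter of 1 follows the methods, which applied the 1.5-fold threshold to Cuffdiff fold changes with a p-value cut-off; here it was applied to FPKM plus a pseudocount of 1, without p-values. Distances ran from gene extents on primary chromosomes to the nearest site edge, in 1-based hg19 coordinates; a site's position in genes, GC content and windows came from GRCh37 with GENCODE release 44 (GC of the transcript nearest in length). Every retained member is named except 1, which is counted but not reported here, members under the filter only with a site or an FPKM above 0.5, sites by the 3 highest scores, and related genes if changed or among the 5 most abundant. Members and lists were chosen with earlier results of these data known. Python 3.11.15, pandas 2.3.3 and scipy 1.17.1 were used, and the calls were tested on simulated data. Alternatives covered the pseudocount, filter, threshold, scaling, transcript choice, FPKM interval midpoint, site distance and score.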

Additional observations from a re-analysis of the deposited data

How the results depend on the processing

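With 1 library per condition no replicate could be left out and no error between cultures can be given. No paired analysis was possible because each condition has 1 library and no result comes from a test. The main count was 1 member higher and 0 lower: a pseudocount of 0.1 gave 2 higher (ITGAV and LAMA3) and 1 lower (COL1A1), no pseudocount gave 3 higher (with ITGA10 besides) and 1 lower, the highest transcript of each gene gave 2 higher (ITGAV and LAMA3), a 2-fold threshold gave 0 higher, and subtracting the median of each gene's GC class, gave 0 higher (the absent pseudocount and the GC adjustment were chosen after seeing the data). The GC adjustment turned the sign of ITGB1, ITGB1BP1 and ITGB3BP, all near 0. Rescaling to a median log2 ratio of 0, the midpoint of the FPKM interval, and other filters on FPKM left 1 higher, and the former 2 also turned the sign of ITGB3BP. Members with a PR site numbered 52, but 33 when the site had to overlap the gene and 19 with scores of 100 or more; the corresponding shares of all symbols were 17.9% and 14.2%. Related genes numbered 8 higher and 1 lower, against 4 higher and 0 lower at 2-fold, and 2 lower (DST and SRC) with a pseudocount of 0.1 or none, or 3 with the highest transcript (ZYX besides), alternatives added after seeing the data. Members under the filter were given no call, though some, such as COL7A1, had as many reads as ITGA10.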
